A study of Mus musculus with 4 samples.

Results

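The kinesin and tubulin RNAs of mouse spermatogonial stem cells were examined for their contacts with themselves and with other RNAs. The members were the RNAs whose name began with Kif or with Tuba, Tubb or Tubg, followed by a digit. Kif11 and Kif20b were left out. This gave 44 of the 13318 RNAs in the deposited table, 31 named as kinesins and 13 as tubulins. They held 210 of 56636 listed pairs of RNAs. Of these, 14 joined a member to itself (a within-RNA pair) and 196 joined it to another RNA (a between-RNA pair). In the RefSeq gene table of the assembly GRCm38.p6, 43 of the 44 were found by symbol. The other 1, Kif1bp, was found under its present name Kifbp and encodes a kinesin-binding protein, not a motor. Tubb4b-ps1 and Tubb4b-ps2 are pseudogenes of the tubulin gene Tubb4b.

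Microtubules are hollow filaments built from dimers of alpha and beta tubulin, and gamma tubulin starts their assembly. Kinesins are motor proteins that use ATP, most to carry cargo along microtubules, others to slide them in the spindle or to shorten their ends. In the testis they serve the divisions of germ cells, and in spermatids microtubules build the manchette around the nucleus and the axoneme of the sperm tail.

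The 4 libraries came from RIC-seq, in which RNA and protein are fixed in the cell with formaldehyde, RNA is cut, ends that lie close are joined, and the joined (chimeric) fragments are sequenced. The differentiation group was 2 libraries whose genotype label reads Differentiation, and the control group 2 libraries labelled WT. Both are labelled as spermatogonial stem cells. The sources used here do not give the strain, the age of the animals, the culture conditions, or how and for how long differentiation was induced. They do not say either that the libraries are of separate cultures. The p-values therefore cover the spread among 4 libraries, part or all of which may be technical.

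Counts over the listed pairs were 793129 and 1155923 in the differentiation libraries, against 1209031 and 1400011 in the controls. Every listed pair had at least 1 count in each library, so these totals are those of shared pairs and not sequencing depth. The labelled cell type was only partly borne out by the markers. Of 11 markers of undifferentiated spermatogonia 5 were not listed, among them Id4 and Nanos2. Gfra1 and Shisa6 were listed, and the list summed to 209 to 230 CPM (edgeR's scaled counts) in differentiation libraries against 740 to 867 CPM in controls. The 8 listed Sertoli markers summed to 1034 to 1070 CPM in differentiation libraries and 1461 to 1571 CPM in controls, and 4 of 7 tested fell. The 8 listed fibroblast markers summed to 1518 to 1667 CPM and 1582 to 1723 CPM in the same order, with 4 lower and 1 higher. The higher one, Tnc, had 668 and 691 CPM in differentiation libraries and 320 and 270 CPM in controls. The other 7 all had a negative change, and the median of the list was -0.74. The 6 listed meiotic markers summed to 474 to 576 CPM in differentiation libraries and 106 to 115 CPM in controls, and all 5 that were tested rose. The 4 listed markers of differentiating spermatogonia summed to 61.3 to 75.6 CPM in differentiation libraries and 47.8 to 50.7 CPM in controls. None of the 3 tested was called by edgeR and 1 had an unadjusted p under 0.05, with Kit at -0.19, Stra8 at 0.40 and Sohlh2 at 1.08. The 5 germ cell markers summed to 153 to 195 CPM and 47.2 to 51.3 CPM in the same order, and 1, Tdrd9, rose. The 3 listed spermatid markers summed to 217 to 264 CPM and 5.76 to 7.03 CPM. The defining protamine and transition protein genes Prm1, Prm2, Tnp1 and Tnp2 were not listed. Nearly all of the sum in differentiation libraries was Rsph1 (163 and 204 CPM) and Spag17 (51.2 and 59.1 CPM). The other, Spaca1, had at most 2.44 CPM in a library and was not tested. These marker lists moved between the same groups as the kinesin and tubulin RNAs did, and their part in the results below was not tested. In such bulk libraries fewer cells of a type and less RNA per cell cannot be told apart, nor can the level of an RNA and its readiness to form contacts.

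Pairs that held a tubulin RNA took up more of the library after differentiation, while those that held a kinesin RNA kept to a narrow range. Tubulin pairs were 0.131% (95% Wilson interval 0.123% to 0.139%) and 0.158% (0.151% to 0.166%) of all counts in the differentiation libraries. They were 0.0771% (0.0723% to 0.0822%) and 0.0745% (0.0701% to 0.0792%) in the controls. The groups did not overlap. Kinesin pairs were 0.113% and 0.130% of differentiation counts and 0.113% and 0.120% of control counts, and here the groups overlapped. With 2 libraries against 2 an exact permutation test cannot go below p = 0.333, so no test of these shares was made, and the intervals cover counting error only.

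For each RNA all its pairs were summed to a contact total, and the totals of all RNAs were fitted together with the quasi-likelihood test of edgeR. Each change is the log2 of differentiation over control, and SE is its standard error in the fit. Here a change was called at a Benjamini-Hochberg adjusted p under 0.05. Of the 44 members 43 had counts enough for a test. Kif26a, with 10 counts over all libraries, did not. Among the 43, 5 rose, against 5.44% of all 10993 RNAs tested, and 3 fell, against 6.75%. Either direction made 8 of 43, against 12.2% of all RNAs. The members' median was 0.19 and that of all RNAs -0.0011. Both differentiation libraries lay above both controls for 16 members, against 26.1% of all RNAs, and below them for 11, against 29.1%. Taken apart, 4 of 13 tubulins rose and none fell. The 4 were Tuba3a and its near copy Tuba3b, and Tubb4b and its pseudogene Tubb4b-ps1, and near copies share counts. The tubulin median, with each copy taken singly, was 0.70. That median was 0.43 without differentiation 2 and 0.97 without differentiation 1. It was 1.095 for the 9 tested without hub pairs, where that of all RNAs was 0.21. Of 30 RNAs named as kinesins, Kif1bp among them, 1 rose and 3 fell, with a median of -0.10 whose sign depended on the setting. It was 0.05 when libraries were scaled by column totals alone, which moved the median of all RNAs to 0.16. It was 0.0044 over between-RNA pairs only, 0.098 without differentiation 2, and 0.43 for the 17 tested without hub pairs, where that of all RNAs was 0.21. Without differentiation 1 it was -0.35, and without control 1 it was -0.22. Without control 2 it was -0.061. Neither family was tested as a set.

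**Figure D1:**
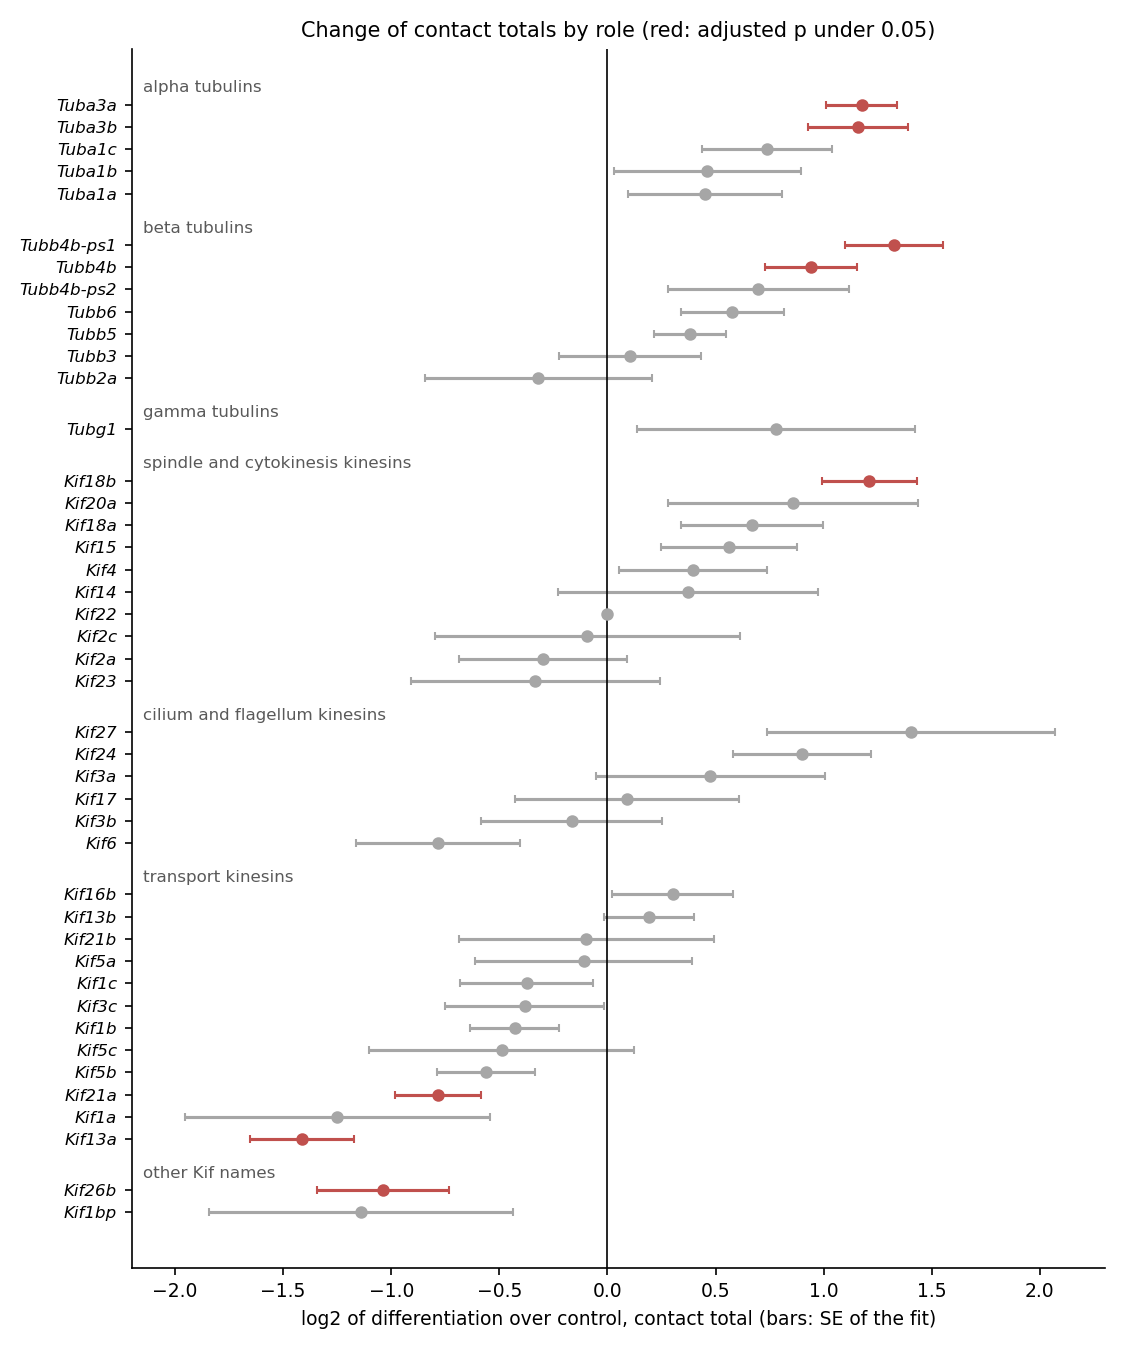
Change of the contact total of each tested kinesin or tubulin RNA, grouped by role, on the horizontal axis as log2 of differentiation over control. Points are the fitted change, bars 1 SE (none is drawn for Kif22, whose change was near 0), and red marks an adjusted p under 0.05. All tubulins but Tubb2a lie to the right of 0, and 10 of 12 transport kinesins lie to the left. Under column totals, where the median of all RNAs was 0.16, 8 of 12 transport kinesins were negative.

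Of 5 alpha tubulins, which pair with beta tubulins in the building block of microtubules, 2 rose and none fell, with a median of 0.74. Tuba3a and Tuba3b encode the same protein, known from mouse as an alpha tubulin of the testis. Tuba3a (chromosome 6, 125278270 to 125286081, minus strand) had contact totals of 359 and 441 CPM in the differentiation libraries, against 178 and 177 CPM in the controls. Both differentiation libraries were high and the controls nearly equal. It rose 2.26-fold (log2 change 1.18, SE 0.16, edgeR adjusted p = 0.000976). Tuba3b, on the same chromosome at 145615963 to 145621477, had 64.2 and 79.0 CPM in differentiation libraries and 32.3 and 32.1 CPM in controls, again without overlap. It rose by 1.16 (SE 0.23, adjusted p = 0.0074). The other 3, Tuba1a, Tuba1b and Tuba1c, are the widely used alpha tubulins of dividing and growing cells and had changes of 0.45, 0.46 and 0.74 that did not pass (adjusted p = 0.457, 0.54 and 0.141). Tuba1c had 30.9 and 42.5 CPM in differentiation libraries and 20.2 and 24.1 CPM in controls, without overlap, while Tuba1a and Tuba1b overlapped.

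The rises of Tuba3a and Tuba3b share counts, and Tuba3b gives little that is independent of Tuba3a. Their shared pair was 16.1% of the Tuba3a total, of which 82.2% lay within the RNA. It held 89.3% of the Tuba3b total, and the rest were its contacts with hub RNAs. This name is given here to a list of 6 RNAs, most of them found in very many pairs. The count of Tuba3a with Tuba3b was 19.2% and 20.1% of that of Tuba3a with itself in the differentiation libraries, against 19.4% and 18.7% in the controls. This ratio was nearly constant over the 4 libraries. Whether the shared pair holds contacts of 2 RNAs or reads of one gene placed on its copy was not tested. With both copies summed and each pair counted once, an alternative chosen after seeing the data, the total was 366 and 448 CPM in differentiation libraries against 182 and 182 CPM in controls (log2 change 1.16, SE 0.16, adjusted p = 0.00102). Both calls were lost without control 2 (adjusted p = 0.0648 for Tuba3a and 0.140 for Tuba3b), and that of Tuba3b also without control 1 (0.0933).

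Of 7 beta tubulin RNAs, 2 rose and none fell, with a median of 0.58. They were Tubb4b and its pseudogene Tubb4b-ps1. Tubb4b, which encodes a beta tubulin rich in cilia and flagella, lies on chromosome 2 at 25222158 to 25224702. Its total was 113 and 157 CPM in differentiation libraries against 77.2 and 64.2 CPM in controls (log2 change 0.94, SE 0.21, edgeR adjusted p = 0.0146). The groups did not overlap, and the spread was wider among differentiation libraries. Tubb4b-ps1 (chromosome 5, 7179296 to 7180843) had 87.7 and 123 CPM against 45.5 and 39.1 CPM in controls (1.32, SE 0.23, adjusted p = 0.00327). The pair of Tubb4b with Tubb4b-ps1 held most of both, so these 2 rises share most of their counts. Tubb4b had no listed within-RNA pair, and pairs with its pseudogenes and other tubulins were 76.2% of its total and 95.5% of that of Tubb4b-ps1. With the 3 copies summed the total was 122 and 166 CPM in differentiation libraries and 81.9 and 68.3 CPM in controls (0.95, SE 0.21, adjusted p = 0.0127). Tubb4b lost its call without control 1 (0.102) or control 2 (0.247), and Tubb4b-ps1 likewise (0.0530 and 0.118).

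Tubb5, a beta tubulin of dividing cells, had 199 and 187 CPM in differentiation libraries and 140 and 156 CPM in controls, without overlap, and a change of 0.38 that did not pass (adjusted p = 0.165). Summed over between-RNA pairs only, all of its listed contacts, it passed at an adjusted p of 0.0403, on the same counts with the scaling and dispersion of those pairs. Tubb6 had 56.1 and 52.7 CPM against 39.8 and 33.1 CPM in controls (0.58, adjusted p = 0.145). Tubb3, best known from neurons, had a change of 0.10 with overlapping groups, as did Tubb2a with -0.32. Tubb4b-ps2 (0.70, adjusted p = 0.316) and the gamma tubulin RNA Tubg1 (0.78, adjusted p = 0.480) did not pass. Tubg1 had 3.25 and 7.53 CPM in differentiation libraries and 4.04 and 2.51 CPM in controls, too few counts for a firm statement.

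**Figure D2:**
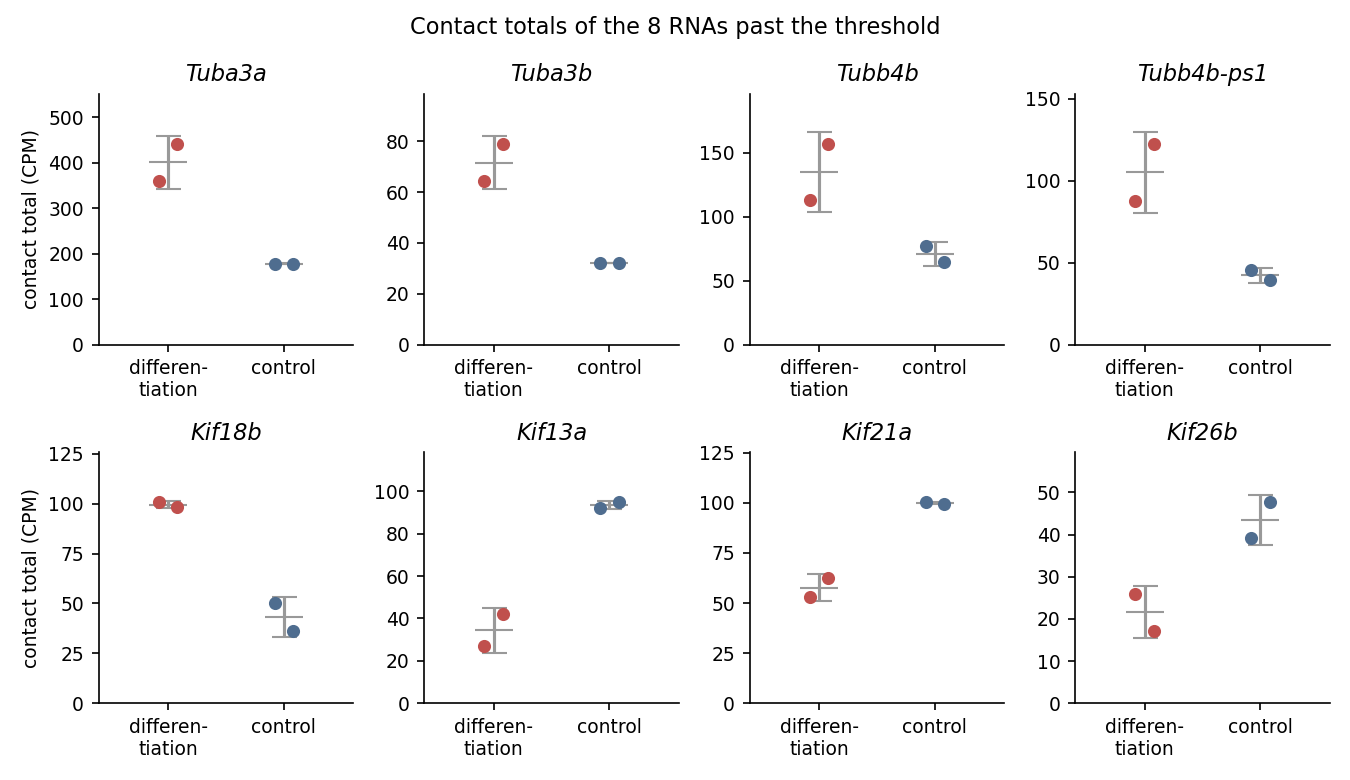
Contact totals in CPM (vertical axes, each from 0 and on its own scale) of the 8 kinesin and tubulin RNAs with an adjusted p under 0.05. Points are libraries, 2 differentiation on the left and 2 control on the right of each panel, with the mean and 1 SD in grey. Tuba3a reads 359 and 441 against 178 and 177 CPM, and Kif13a 26.8 and 41.9 against 92.2 and 94.9 CPM.

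Of 10 tested spindle and cytokinesis kinesins 1 rose and none fell, with a median of 0.38. Kif18b, a motor at the plus ends of astral microtubules that helps to place the spindle, lies on chromosome 11 at 102905518 to 102925134. Its total was 101 and 98.4 CPM in differentiation libraries against 50.2 and 36.1 CPM in controls, a rise of 2.31-fold (log2 change 1.21, SE 0.22, edgeR adjusted p = 0.00447). The differentiation libraries were nearly equal and the controls did not reach them. The call was lost without control 2 (0.141). Over between-RNA pairs only the change was larger but did not pass (1.62, adjusted p = 0.0649), on few counts, since 89.7% of the Kif18b counts lay within the RNA. Its close relative Kif18a, which aligns chromosomes, had 25.2 and 23.7 CPM in differentiation libraries and 15.6 and 15.1 CPM in controls (0.67, adjusted p = 0.218). Kif15, which keeps the spindle bipolar, had 26.0 and 37.6 CPM against 23.6 and 20.1 CPM in controls (0.56, adjusted p = 0.283). The chromosome-arm motor Kif4 had 26.0 and 56.5 CPM in differentiation libraries, on both sides of 35.7 CPM in control 1. Kif20a, Kif14, Kif22, Kif2c, Kif2a and Kif23 ranged from 0.86 to -0.33, with at most 17.9 CPM in a library.

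None of the 6 tested cilium and flagellum kinesins was called by edgeR, and 1 had an unadjusted p under 0.05. The median was 0.28. Kif24, which limits the outgrowth of cilia, came nearest to the threshold from outside. It had 45.5 and 95.7 CPM in differentiation libraries and 43.8 and 33.6 CPM in controls, and differentiation 1 lay close to control 1 (log2 change 0.90, SE 0.32, adjusted p = 0.0924). Its change was 1.35 without differentiation 1, where it was called (adjusted p = 5.43e-06), and 0.24 without differentiation 2. It was also called over between-RNA pairs only (1.08, adjusted p = 0.0197), on the same counts, since it had no listed within-RNA pair. Its largest pairs outside the hub RNAs, with Gm37214 and with Hhipl2, had the same 12 and 45 counts in differentiation libraries and 15 and 14 in controls, and whether these are 1 set of reads listed under both names was not tested. With identical pairs kept once, an alternative chosen after seeing the data, the change of Kif24 was 0.83 (edgeR adjusted p = 0.129). Kif27 was listed with itself alone, and had 4.87 and 6.45 CPM against 1.15 and 3.01 CPM in controls (1.403, adjusted p = 0.202). Kif6 had 16.2 and 9.68 CPM in differentiation libraries and 22.5 and 21.1 CPM in controls (-0.78, adjusted p = 0.212). The transport motors of cilia, Kif3a (0.48), Kif3b (-0.16) and Kif17 (0.09), had overlapping groups.

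Of 12 tested transport kinesins, most of which are known as carriers of organelles and vesicles, 2 fell and none rose. The median was -0.41, and 10 had a negative change, beside 5506 of all 10993 RNAs. Negative changes were 8 of 12 under column totals (median -0.25) and 7 of 12 without differentiation 2 (-0.28). They were 5 of the 9 that could be tested without hub pairs (-0.31). The median of all RNAs was 0.16, -0.015 and 0.21 in the same order, beside -0.0011 with TMM scaling and all pairs and libraries. The group was not tested as a set. Kif13a, a motor of endosomes and of vesicles from the trans-Golgi, lies on chromosome 13 at 46749087 to 46929917. Its total was 26.8 and 41.9 CPM in differentiation libraries against 92.2 and 94.9 CPM in controls, a fall of 1.41 on the log2 scale (SE 0.24, edgeR adjusted p = 0.00303). Controls were high and nearly equal, and no differentiation library reached them. The fall was -1.49 without the pairs with hub RNAs (adjusted p = 0.0317), and the call was lost without control 1 (0.0524) or control 2 (0.0894). Kif21a, a slow motor that restrains microtubule growth at the cell cortex, lies on chromosome 15 at 90933275 to 91050382. It had 52.8 and 62.4 CPM in differentiation libraries and 100.3 and 99.4 CPM in controls (-0.78, SE 0.20, adjusted p = 0.0241). Its change was -0.39 without the pairs with hub RNAs (adjusted p = 0.374), so that the call was lost. There the libraries kept the scaling of the full totals, and the median of all RNAs was 0.21. Over between-RNA pairs only the change of Kif21a was -1.30 (0.00473). The call was also lost without control 1 (0.171) or control 2 (0.225), under column totals (0.0885) and with DESeq2 (0.0552).

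Other transport motors did not pass. Kif5b, the widely expressed heavy chain of conventional kinesin, had 40.6 and 41.4 CPM in differentiation libraries and 55.3 and 65.7 CPM in controls (-0.56, SE 0.23, adjusted p = 0.137). Kif1b, a carrier of mitochondria and of synaptic vesicle precursors, had 56.1 and 62.4 CPM against 72.1 and 87.8 CPM in controls (-0.43, adjusted p = 0.210). In both the groups did not overlap. Kif16b, a motor of early endosomes, had 74.7 and 81.7 CPM in differentiation libraries and 42.7 and 83.8 CPM in controls, which spanned the differentiation values (0.30, adjusted p = 0.536), and its change was -0.10 without control 1. Kif13b had 65.0 and 62.9 CPM against 51.9 and 59.7 CPM in controls (0.19, adjusted p = 0.607). Kif1a, Kif1c, Kif3c, Kif5a, Kif5c and Kif21b ranged from -1.25 to -0.10. Several of these motors are known from neurons, and the 3 listed neuron markers summed to 47.1 and 15.6 CPM in differentiation libraries and 68.6 and 49.7 CPM in controls. Of the 2 tested, Map2 fell. Rbfox3 had 36.6 and 6.45 CPM in differentiation libraries and 13.3 and 5.02 CPM in controls (log2 change 1.18, adjusted p = 0.310). The part of these markers was not tested.

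Kif26b, a kinesin that mouse kidney development needs, lies on chromosome 1 at 178529125 to 178932857 and came nearest to the threshold from inside. It had 26.0 and 17.2 CPM in differentiation libraries and 39.2 and 47.7 CPM in controls, without overlap (log2 change -1.04, SE 0.30, edgeR adjusted p = 0.0473). The call was lost under several settings, among them RLE scaling (0.0522), the default filter (0.0501) and DESeq2 (0.101). Without hub pairs, where the median of all RNAs was 0.21, the change was -0.64 and the call was lost (0.381). It was lost too without differentiation 2 (0.170), control 1 (0.168) or control 2 (0.385). Kif1bp had 1.62 and 2.15 CPM against 5.76 and 3.01 CPM in controls (-1.14, adjusted p = 0.329).

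All 8 calls were lost when control 2 was left out, where 9 members had an unadjusted p under 0.05 and 162 of 10993 RNAs (1.47%) were called. Without control 1, Tuba3a and Kif18b kept theirs and 337 RNAs were called in all.

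Most contacts of these RNAs were with themselves, with a copy, or with a few hub RNAs. These hub RNAs were Gm42418, Gm26917, Gm10800, the ion exchanger RNA Slc9a9 and the nuclear RNAs Neat1 and Malat1. Of the 44 members 42 had a pair with a hub RNA, and Tubb4b-ps2 and Kif27 had none. Gm42418 was a partner of 38 members and had 8422 pairs in the table, Slc9a9 of 34 with 7834, and Gm26917 of 28 with 7584. Malat1 was a partner of 11 members and had 2181 pairs, Neat1 of 3 with 1154, and Gm10800 of none with 76. The list was not a ranking by number of pairs. Outside it, Shroom3 had 3044 pairs, Gm23935 2134 and Gm12153 1710. Hub pairs were 37.6% and 33.4% of the members' counts in differentiation libraries and 46.9% and 47.3% in controls, against 34.6% and 29.9% and 39.3% and 40.01% of all counts. Pairs with Neat1 or Malat1 were 2.27% and 1.56% of the members' counts in differentiation libraries and 4.69% and 6.74% in controls. For all RNAs these were 3.14% and 2.52%, and 8.41% and 9.71%.

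**Figure D3:**
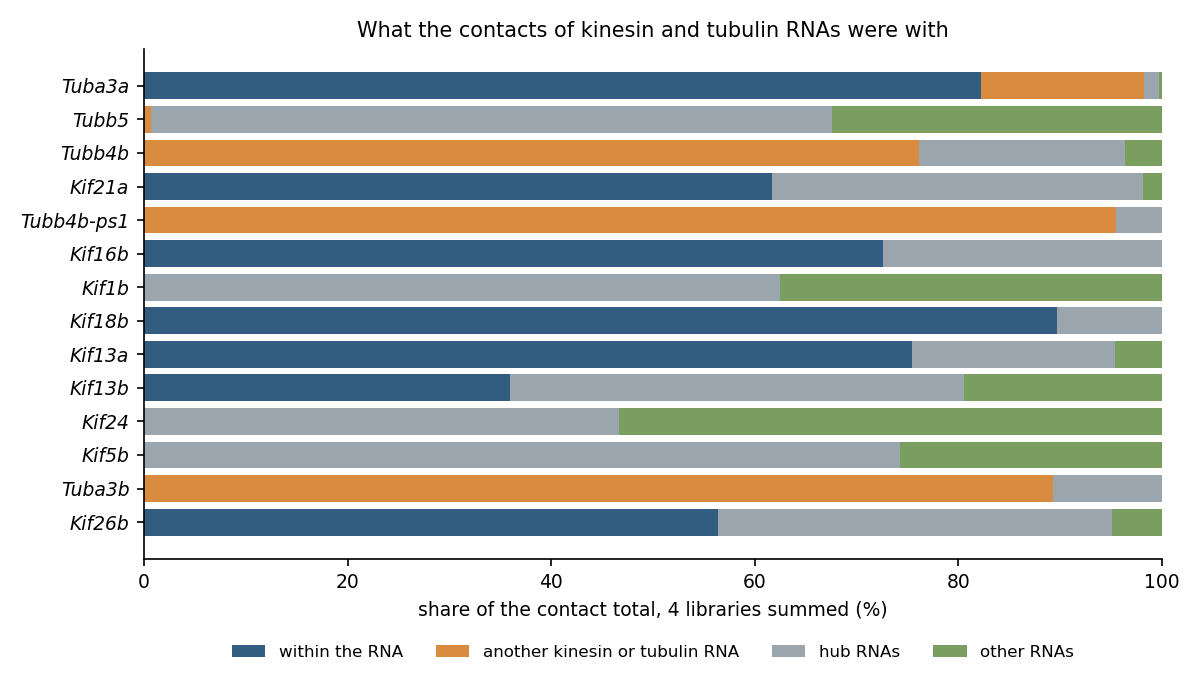
Share of the contact total (horizontal axis, percent of the counts of all 4 libraries) that each of 14 kinesin and tubulin RNAs had with itself, with another kinesin or tubulin RNA, with hub RNAs and with other RNAs. Tuba3a and Kif18b were mostly joined to themselves, Tuba3b and Tubb4b-ps1 to a copy, and Tubb5, Kif1b and Kif5b to hub RNAs.

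Within-RNA pairs were 40.4% and 42.5% of the members' counts in differentiation libraries and 34.8% and 36.7% in controls. Of the 14, all tested, 2 rose (background 12.5% of within-RNA pairs) and none fell (background 3.36%), with a median of 0.72 beside 0.44 for all within-RNA pairs. Scaled on pairs, which gives other CPM than totals do, Tuba3a with itself had 487 and 609 CPM in differentiation libraries and 201 and 195 CPM in controls (log2 change 1.47, SE 0.21, edgeR adjusted p = 4.67e-04). Kif18b with itself had 139 and 153 CPM against 63.4 and 43.2 CPM in controls (1.46, SE 0.28, adjusted p = 0.00459), and without control 2 that call was lost (0.141). In neither did the groups overlap. Kif13a with itself had 18 and 67 counts in differentiation libraries and 113 and 149 in controls (-1.13, adjusted p = 0.0716) and passed under 4 other settings that kept all libraries. Kif21a with itself had 48 and 84 counts against 99 and 110 in controls, a change of -0.12 (adjusted p = 0.873), and Kif26b with itself 23 and 20 against 30 and 55 (-0.36, adjusted p = 0.707). Whether within-RNA and between-RNA contacts of a member changed unequally was tested for 12 members as an interaction. None was called by edgeR, none had an unadjusted p under 0.05, and the smallest adjusted p was 0.495 (background 0.0844%). Differences ran from -0.62 to 1.03. When totals were summed over between-RNA pairs only, 8 of 40 members rose (background 6.56%) and 3 fell (background 6.48%). The 8 were Tuba3a, Tuba3b, Tubb4b, Tubb4b-ps1, Tuba1c, Tubb5, Tubb6 and Kif24. All but Tuba3a had no listed within-RNA pair, so their counts were those of the full totals. Only the scaling, the dispersion and the set of tested RNAs differed. Tuba1c, Tubb5, Tubb6 and Kif24, not called on full totals, went from 0.74, 0.38, 0.58 and 0.90 to 0.92, 0.55, 0.74 and 1.08. The 8 are not independent. Tuba3a shares a pair with Tuba3b, and Tubb4b with Tubb4b-ps1, and each such pair enters both totals. Kif24 holds the pairs of identical counts named above.

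Of 196 between-RNA pairs 101 had counts enough for a test, and 3 rose (background 1.31% of between-RNA pairs) and none fell (background 2.26%). With the within-RNA pairs, 5 of 115 pairs changed, against 5.28% of all pairs tested. The median of the between-RNA pairs was 0.33 beside -0.05 for all between-RNA pairs, and 19 had an unadjusted p under 0.05. Tubb4b with Tubb4b-ps1 had 130 and 191 CPM in differentiation libraries and 56.3 and 47.2 CPM in controls (log2 change 1.64, SE 0.28, adjusted p = 0.00201). Tuba3a with Tuba3b had 93.6 and 123 CPM against 38.8 and 36.4 CPM in controls (1.53, SE 0.29, adjusted p = 0.00517), and lost its call without control 2 (0.0839). These 2 join near copies. Kif18b with Gm42418 had 16 and 8 counts in differentiation libraries and 2 and 2 in controls (3.13, SE 0.80, adjusted p = 0.0283). On so few control counts the ratio had a counting interval of 3.04 to 35.1, and the call was lost without differentiation 1 (0.262), control 1 (0.0915) or control 2 (0.149).

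**Figure D4:**
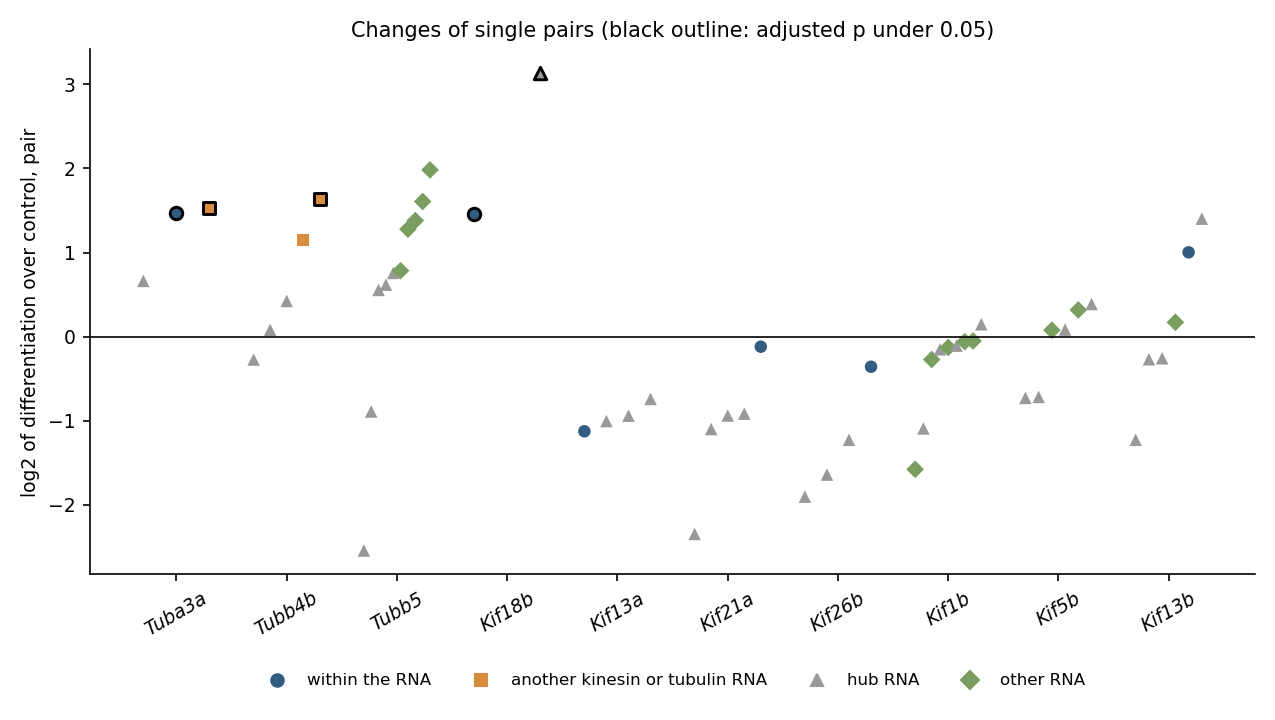
Change of each tested pair of 10 kinesin and tubulin RNAs, as log2 of differentiation over control on the vertical axis. Symbols give the kind of partner and a black outline an adjusted p under 0.05. The 5 outlined pairs are Tuba3a with itself and with Tuba3b, Tubb4b with Tubb4b-ps1, and Kif18b with itself and with Gm42418, and every tested pair of Kif13a, Kif21a and Kif26b lies below 0.

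Pairs that did not pass showed what the larger totals were made of. Kif21a with Malat1 had 2 and 3 counts in differentiation libraries and 16 and 23 in controls (-2.35, adjusted p = 0.0539). Pairs with Neat1 or Malat1 were also lower over all RNAs. They were 3.14% and 2.52% of all counts in differentiation libraries and 8.41% and 9.71% in controls. Tubb5 with Neat1 had 2 and 1 against 9 and 19 (-2.54, adjusted p = 0.0815), while Tubb5 with Cdk8, a kinase RNA, had 9 and 22 against 6 and 5 in controls (1.98, adjusted p = 0.0685). The Tubb5 total thus held pairs that lay on both sides of 0. Its largest pairs outside the hub RNAs were with Gm12153 (0.78, adjusted p = 0.454), Gm23935 (1.61, 0.147) and Cmss1 (1.28, 0.308). Kif1b had its largest such pair with Ube4b, the gene next to it on chromosome 4 at a gap of 20.6 kb, with 7 and 8 counts in differentiation libraries and 3 and 25 in controls, which spanned them. Its pairs with Shroom3 and the small nuclear RNA Rn7sk had changes of -0.13 and -0.05. Kif26b with Gm42418 had 1 and 4 counts against 13 and 15 in controls (-1.90, adjusted p = 0.140). Kif13a with Atxn1, 784 kb away on chromosome 13, had 1 and 1 counts in differentiation libraries and 16 and 3 in controls, too few for a test.

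Few partners were neighbours. Of 160 between-RNA pairs with both genes placed, 16 joined genes of 1 chromosome, and 3 joined genes within 100 kb. Besides Kif1b with Ube4b these were Eif4g3 with Kif17 (55.2 kb, 2 and 1 counts in differentiation libraries and 7 and 3 in controls) and Tuba1b with Tuba1c (95.5 kb, 1 and 2 against 1 and 3). Members joined another member in 7 pairs, all of them between tubulins. Besides the copies of Tuba3 and Tubb4b, these were Tuba1b with Tuba1c, Tubb5 with Tubb4b and Tubb6 with Tubb3, each with at most 3 counts a library. No kinesin RNA was listed with a tubulin RNA or with another kinesin RNA.

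Promoter sequence is shown for 4 of the RNAs with called totals, to set the near copies Tuba3a and Tuba3b beside other RNAs that rose, Tubb4b and Kif18b. Each run is the 150 bases before the start that the RefSeq promoter table gives in GRCm38.p6, 5′ to 3′ on the gene's strand. That start can lie inside the gene span printed above. For Kif18b the run overlaps the end of the span. For Kif13a and Kif21a it lies wholly within the span, and these are not shown. Capitals mark CCAAT, the box bound by NF-Y, and TTTGAA, an element of cell-cycle genes, each sought on both strands.
Tuba3a, chr6:125286082-125286231, minus strand: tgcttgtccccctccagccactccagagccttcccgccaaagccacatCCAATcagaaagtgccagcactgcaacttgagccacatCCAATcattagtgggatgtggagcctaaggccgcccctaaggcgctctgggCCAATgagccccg
Tuba3b, chr6:145615813-145615962, plus strand: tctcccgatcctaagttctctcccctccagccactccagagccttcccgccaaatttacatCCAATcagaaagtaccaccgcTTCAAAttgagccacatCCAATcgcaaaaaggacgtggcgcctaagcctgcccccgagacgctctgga
Tubb4b, chr2:25224703-25224852, minus strand: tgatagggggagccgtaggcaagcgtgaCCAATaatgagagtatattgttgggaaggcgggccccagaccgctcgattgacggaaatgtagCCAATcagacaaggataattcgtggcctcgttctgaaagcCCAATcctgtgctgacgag
Kif18b, chr11:102925125-102925274, minus strand: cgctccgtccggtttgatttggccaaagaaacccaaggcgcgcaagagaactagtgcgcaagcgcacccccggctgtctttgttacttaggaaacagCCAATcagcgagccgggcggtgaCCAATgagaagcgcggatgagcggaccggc

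Tuba3a and Tubb4b held 3 CCAAT boxes each, and Tuba3b and Kif18b 2. At least 1 such box was in 24.5% of 32851 promoter windows of this length and at least 2 in 6.02%, and TTTGAA was in 9.07%. The windows were of 27025 genes, so a gene can have more than 1. Of 35 members with a promoter entry 17 held at least 1 CCAAT box and 7 at least 2. Among the RNAs whose totals fell, Kif26b held 1, and Kif13a and Kif21a held 0. TTTGAA was found once in Tuba3b, which rose, and once in Kif26b, which fell. The GC box GGGCGG was also sought and is not marked above. It was in 28.6% of windows. Kif13a held 2, Kif21a, Kif26b, Tuba3a and Kif18b 1 each, and Tuba3b and Tubb4b 0. The Tuba3a and Tuba3b windows had 115 identical bases of 137 aligned (83.9%), with 26 bases in gaps, so the letters of the copies are alike before their starts as well. The motifs were chosen with the totals known, and a match is a description of the letters and not of a bound site.

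Among other genes of the microtubule system, 6 of 77 tested RNAs in 7 lists rose and 3 fell, with a median of 0.02. These shares lie near the 5.44% and 6.75% of all RNAs, so they set the lists apart in neither direction. Kifc1, a minus-end motor of the spindle that also acts in spermatids, had 78.0 and 80.1 CPM in differentiation libraries and 46.1 and 35.6 CPM in controls (log2 change 0.96, edgeR adjusted p = 0.0164). Its near copy Kifc5b rose by 0.93 (adjusted p = 0.0331), and reads can be shared between them. Prc1, which bundles microtubules of the spindle midzone, had 91.0 and 98.9 CPM against 39.2 and 27.1 CPM in controls (1.53, adjusted p = 0.00163). Among tubulin modifiers Agbl4, which trims glutamates from tubulin, rose by 1.01 (adjusted p = 0.0108) and Svbp, the partner of the tyrosine-removing vasohibins, by 1.03 (adjusted p = 0.0447).

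In the dynein and dynactin list the intermediate chain Dync1i1 fell by 1.65 on the log2 scale (adjusted p = 6.90e-05) and the dynactin subunit Dctn6 fell by 1.49 (0.00470), while the ciliary heavy chain Dync2h1 rose by 0.81 (0.0415). Map2, a neuronal microtubule-associated protein also listed as a neuron marker, had 8.94 and 7.53 CPM in differentiation libraries and 52.5 and 41.7 CPM in controls (-2.52, adjusted p = 7.47e-04). The lists with no call were 5 RNAs of the gamma-tubulin complex, with Tubgcp5 (-0.40) and Tubgcp3 (0.04), 5 of tubulin folding, with Tbcd (-0.24) and Tbca (0.21), and 6 severing enzymes, with Katna1 (0.23) and Spast (0.24). With DESeq2, 3 rose and 3 fell in these lists, and Kifc5b, Svbp and Dync2h1 were not called. Without a filter, 4 rose and 3 fell, and Svbp and Dync2h1 were not called. Without control 1 the calls were 1 higher and 2 lower, and without control 2 there were 0 higher and 3 lower. Without differentiation 2 there were 3 higher and 4 lower, and without differentiation 1 there were 7 higher and 5 lower.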

How the data were processed

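The authors deposited raw, whole-number counts of chimeric reads, 1 for each RNA pair in each library. The submitters' processing notes name STAR and the mouse build GRCm38, with no version and no step. How chimeric reads were called, and what was done with duplicates and overlapping genes, is not given in the sources used here. Every listed pair has at least 1 count in each library.

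The count of every pair of an RNA was summed to its contact total, a within-RNA pair once. A between-RNA pair enters 2 totals. All totals, and all pairs, were tested with edgeR 4.0.16 (R 4.3.3, quasi-likelihood F test, two-sided, TMM scaling, minimum count 5 and minimum total 10), with Benjamini-Hochberg adjustment over all tested. CPM are edgeR's scaled counts, and SE is the log2 change over the square root of F. The biological coefficient of variation was 18.7% for totals and 24.9% for pairs, and n was 2 a group throughout. The interaction test took RNAs with at least 10 counts in each kind of pair. The scripts were tested on simulated data. Intervals of shares are Wilson's and those of ratios exact, and both cover counting error only.

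Named were members past the threshold, the 12 with the most counts, the nearest to the threshold on each side, called pairs, up to 3 partners outside the hub RNAs for each of the 8 members with most counts, and up to 4 called genes or 2 by count in each other list. Kif13a with Atxn1, the pairs of Kif13a, Kif21a and Kif26b that did not pass, Tubb5 with Neat1 or Cdk8, and the smaller members were named after their values were seen. Members, role groups and lists were chosen with earlier results of these data known.

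Alternatives were RLE scaling, column totals, no filter or filterByExpr's defaults (counts of 10 and 15), DESeq2 1.42.0, the replicate number as a block, leaving out Neat1 pairs, hub pairs or each library, and between-RNA pairs only. The fit without hub pairs kept the library sizes and scaling of the full totals, and the median of all RNAs was then 0.21. Chosen after seeing the data were summing near copies and keeping 1 of the identical Kif24 pairs. Near copies can share reads, which makes their single values uncertain.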

Additional observations from a re-analysis of the deposited data

How the results depend on the processing

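Of 43 tested members 5 rose and 3 fell. The higher ones numbered 8 over between-RNA pairs only, 3 with near copies summed and 0 to 8 with 1 library left out. The lower ones numbered 1 under column totals, with DESeq2 and without hub pairs, and 0 to 3 with 1 library left out. Of within-RNA pairs 2 rose, and 1 to 3 with 1 library left out. None fell in the edgeR test, but 1 did, Kif13a with itself, under column totals, no filter, the default filter and the replicate block, and 0 to 1 did with 1 library left out. Of between-RNA pairs 3 rose, and 1 to 7 with 1 library left out. None fell, but 1 did under column totals, no filter and the default filter and 2 under the replicate block. The test of within-RNA against between-RNA pairs called 0 members in all 7 alternatives.

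The replicate numbers pair the libraries only by number (2 pairs, correlation of deviations 0.109 over 4122 RNAs). With the replicate block 6 members rose and 3 fell, adding Kif24 (adjusted p = 0.0188), and 1923 RNAs were called in place of 1340.

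The change of Kif16b turned to -0.097 without control 1, and was up to 0.88 without another library. That of Kif26b with itself turned to 0.0045 without differentiation 2 and 0.0096 without control 2, and was down to -0.76 without another library. Without differentiation 1, 11 members and 2151 RNAs were called, adding Kif24, Kif4 and Tuba1c. A group left with 1 library was given the spread of the other. The causes of these shifts were not tested. Pairs absent from any library were not analysed here, so a contact lost or gained completely could not be seen, and 101 of 196 between-RNA pairs had counts enough for a test. Kif18b with Gm42418 and Tubb5 with Neat1 had no value under some settings, where the filter or DESeq2 left them out.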
